A study of Mus musculus with 10 samples.

Results

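Receptor genes of natural killer (NK) cells, 8 in all, were followed in single-cell data from SW1 melanoma tumors: Ncr1, Klrk1, Klrb1c, Klrd1, Klrc1, Klrc2, Klre1 and Klrg1. They were chosen by name, and all 8 were present among the 32285 genes of the matrices. SW1 is a mouse melanoma line that was grown under the skin of female C3H/HeJ mice aged 4 to 6 weeks, and L-fuc is a dietary sugar given in the drinking water. Leukocytes sorted for CD45 were pooled into 1 library per condition. Values below come in the order pretreatment (day 0, control water), control and L-fuc at day 7, then control and L-fuc at day 21. The labels disagree on the dose (100 mM or 100 nM L-fuc) and on the mice per arm (5 or 6, with 3 at pretreatment).

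NK cells have no rearranged antigen receptor and weigh signals from activating and inhibitory receptors encoded in the germline. Most of these are lectin-like proteins from a gene cluster called the NK gene complex, and NKp46, the product of Ncr1, is an immunoglobulin-like receptor encoded elsewhere. Several of them also appear on CD8 T cells after antigen contact, where they tune killing of target cells.

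Barcodes with at least 500 genes and at most 10% mitochondrial unique molecular identifiers (UMIs, each counting one captured RNA molecule whatever its length) numbered 1470, 17897, 9034, 1573 and 1182 in that order. Their median depth lay between 2890.5 and 8201 UMIs. Among 31156 such barcodes, 3370 held no Cd3e, Cd3d or Cd3g UMI and at least 1 Nkg7 UMI (the NK-type gate, a working name), 1473 were CD8 T barcodes with at least 2 Cd3 UMIs and at least 1 Cd8a or Cd8b1 UMI, and 2438 were other T barcodes. Another 5396 barcodes outside these gates with at least 5 C1qa, C1qb and C1qc UMIs, a macrophage signature, served as the reference that should lack NK receptors. Since each condition is 1 pooled library, conditions could not be tested against each other, and the 95% intervals given below cover counting error only. The 2 libraries of day 7 shared 433 barcode sequences, other pairs shared 3 to 86, and leaving all of these out moved none of the values checked beyond its interval.

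The NK-type gate did not hold NK cells alone. In the control library of day 7, 1609 of its 2069 barcodes had a single Nkg7 UMI, 28.1% carried at least 3 UMIs of SW1 tumor markers (Sox10, Mlana, Pmel and Dct, nearly all of them Sox10) and 30.4% carried a UMI of Gzma, Eomes, Txk or Prf1. The L-fuc library of day 7 had 501 such single-UMI barcodes among 1206, with tumor markers in 14.2% and an NK marker in 65.7%. A stricter NK-marker-positive gate was therefore added after these values were seen. It asked for at least 2 Nkg7 UMIs, fewer than 5 C1q UMIs and at least 1 UMI of those NK markers, none of which is a member, and it held 13, 239, 504, 5 and 6 barcodes. This gate set no limit on tumor markers or receptor contigs, so it need not hold NK cells alone either. How often C1q-positive or tumor-marker barcodes carry the same NK markers was not allowed for. T barcodes with a productive T cell receptor contig and fewer than 5 C1q UMIs were also taken separately (receptor-positive T barcodes). Receptor contigs, which the gates did not use, were found in 65.8% to 88.9% of CD8 T barcodes, in 74.3%, 42.03%, 52.1%, 70% and 31.4% of other T barcodes and in 0% to 1.45% of NK-type barcodes.

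All members but Ncr1 lie on chromosome 6, which holds the NK gene complex, and Ncr1 lies on chromosome 7 (GRCm38), all annotated as protein-coding genes. Klre1 (129577905 to 129585827), Klrd1 (129591782 to 129598775), Klrk1 (129610323 to 129623864), Klrc2 (129647496 to 129660689) and Klrc1 (129666015 to 129678973) follow each other in that order among the members, Klrb1c is at 128778485 to 128789215, Klrg1 is at 122270596 to 122282882 and Ncr1 is at 4337724 to 4345164. Klrb1c shares 413 exonic bases with Gm44511 on the same strand, a gene not analysed here. Ncr1, Klrk1 and Klrc1 differed in where they were found. Ncr1 was higher in the NK-type gate than in either T gate in every library, though nearly level with CD8 T barcodes at control day 7. Klrc1 was found mainly in NK, CD8 T and other T barcodes, and Klrk1 in all of these and in C1q-positive barcodes. The promoter sequences of these genes are therefore shown. They are the 250 bases before the RefSeq start sites (GRCm38.p6), 5′ to 3′ on the gene's strand, with the core letters bound by Runx factors (TGTGGT, or ACCACA on the other strand) in capitals.
Ncr1, chr7:4337474-4337723, plus strand: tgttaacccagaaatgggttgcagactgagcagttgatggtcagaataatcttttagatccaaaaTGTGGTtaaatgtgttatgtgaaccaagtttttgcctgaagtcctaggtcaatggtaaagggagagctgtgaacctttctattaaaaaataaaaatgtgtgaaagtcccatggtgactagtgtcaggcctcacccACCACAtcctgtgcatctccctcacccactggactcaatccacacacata
Klrk1, chr6:129623865-129624114, minus strand: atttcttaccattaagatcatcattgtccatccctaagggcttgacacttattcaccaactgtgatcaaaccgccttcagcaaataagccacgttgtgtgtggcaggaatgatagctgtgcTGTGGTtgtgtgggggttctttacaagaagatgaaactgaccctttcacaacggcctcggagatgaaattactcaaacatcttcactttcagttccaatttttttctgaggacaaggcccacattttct
Klrc1, chr6:129678974-129679223, minus strand: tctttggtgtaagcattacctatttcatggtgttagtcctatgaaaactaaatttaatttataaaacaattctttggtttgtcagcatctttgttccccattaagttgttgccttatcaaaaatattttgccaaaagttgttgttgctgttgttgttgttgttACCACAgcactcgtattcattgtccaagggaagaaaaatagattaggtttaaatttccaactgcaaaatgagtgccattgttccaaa
Promoters were at hand for 6 members (not for Klrd1 and Klrg1), and all 6 held TGTGGT or ACCACA in at least one window, as did 14.0% of 32851 promoter windows of that length. TCACAC or GTGTGA, the letters of a T-box site, occurred in windows of Ncr1 and Klre1 and in 12.3% of all windows. No member window held TGANTCA, an AP-1 site present in 6.75% of windows. No 2 matches overlapped. These are matches of letters only.

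Ncr1, whose product NKp46 is an activating receptor, was the most abundant member in NK-type barcodes of every library. Its level there was 549.8, 49.9, 335.1, 163.4 and 369.4 UMIs per 1000000 (CPM) in the 5 libraries in order, with 82, 612, 2454, 42 and 93 UMIs. The low value belonged to the control library of day 7, where 28.1% of the gate carried tumor markers. In NK-marker-positive barcodes Ncr1 stood at 1037, 343.5, 799.2, 1792 and 1274 CPM, so that the control library of day 7 was again the lowest. In CD8 T barcodes it stood at 10.54, 47.4 and 79.9 CPM in the libraries of days 0 and 7, and no UMI was found in the 27 and 15 CD8 T barcodes of day 21.

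The share of NK-type barcodes with an Ncr1 UMI was 77.3%, 13.3%, 46.2%, 23.3% and 30.2%. C1q-positive barcodes, whose median depths at day 7 were 4504 (control) and 3292 (L-fuc) UMIs against 4599 and 3516.5 in the NK-type gate, gave 0%, 3.81%, 3.83%, 0.244% and 0.372%. The 0 of 403 barcodes at day 0 allows a share of up to 0.744%. With every barcode thinned to 1000 UMIs, Ncr1 was found in 6.97% (control, 6.19 to 7.42) and 28.5% (L-fuc, 26.7 to 30.5) of NK-type barcodes at day 7 and in 1.18% (0.932 to 1.48) and 1.62% (1.45 to 1.84) of C1q-positive barcodes. Because thinning draws UMIs at random, values at 1000 UMIs are given as the median of 20 draws with the lowest and highest draw, a range that leaves out counting error. The share was thus above the reference in each of these settings. C1q-positive barcodes with an Nkg7 UMI and no Cd3 UMI enter the NK-type gate, so the reference holds none of them. At day 7 the NK-type gate held 301 (control) and 318 (L-fuc) barcodes with at least 5 C1q UMIs. The part of this rule in the difference was not tested.

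Klrk1, which encodes NKG2D, an activating receptor for stress-induced ligands, stood at 234.7, 22.4, 119.2, 81.7 and 95.3 CPM in NK-type barcodes and at 78.8, 57.8, 107.2, 92.9 and 48.9 CPM in CD8 T barcodes. Klrb1c, which encodes NK1.1, was scarcer, with 67.0, 6.93, 49.4, 31.1 and 43.7 CPM in NK-type barcodes. In CD8 T barcodes Klrb1c had at most 8.11 CPM and 52 UMIs in any library. The reference genome is that of C57BL/6J mice and the mice were C3H/HeJ, and the part of strain differences in these lectin-like genes was not tested.

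Klrd1 encodes CD94, which pairs with NKG2A (Klrc1, inhibitory) or NKG2C (Klrc2, activating). It was the most abundant member in CD8 T barcodes of every library, with 167.0, 98.0, 207.0, 331.3 and 62.5 CPM, and its level in NK-type barcodes was 308.4, 25.6, 196.3, 93.4 and 150.9 CPM. Klrc1 stood at 160.9, 12.6, 70.6, 27.2 and 47.7 CPM in NK-type barcodes and at 109.3, 49.0, 105.3, 121.2 and 13.6 CPM in CD8 T barcodes. Klrc2 was the scarcest of the trio in both gates, at most 20.1 CPM in NK-type and 25.1 CPM in CD8 T barcodes. Of the 90-base windows of Klrc1 transcripts, 18.6% are also found in Klrc2, and 8.75% of Klrc2 windows are found in another of the related genes compared, so the split between these genes is uncertain. Transcripts of Klrd1, Klrk1, Klre1, Klrg1 and Ncr1 shared no such window.

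Klre1, a lectin-like receptor that pairs with Klri1 or Klri2, stood at 53.6, 10.7, 104.0, 77.8 and 87.4 CPM in NK-type barcodes and at no more than 32.6 CPM in CD8 T barcodes. Klrg1, an inhibitory receptor for cadherins, stood at 20.1, 3.92, 28.4, 15.6 and 43.7 CPM in NK-type barcodes, where the 2 values of day 21 rest on 4 and 11 UMIs. Other T barcodes held Klrg1 at 28.1, 12.4 and 20.9 CPM at day 0 and at control and L-fuc day 7. In other T barcodes of control day 21 no Klrg1 UMI was found. The plot of levels by gate and library shows all 8 members with their counting intervals.

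**Figure D1:**
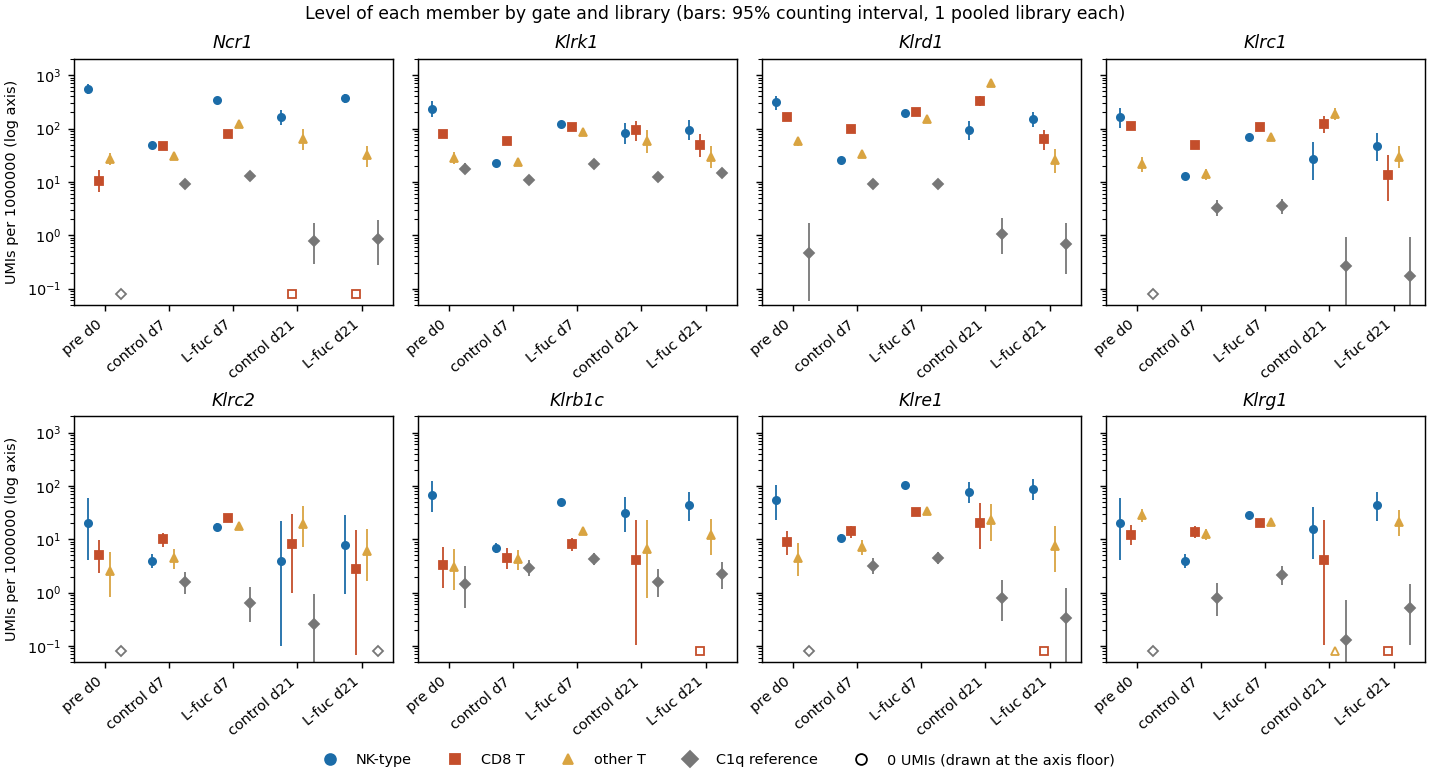
Level of each member in UMIs per 1000000 (log axis) in the NK-type, CD8 T, other T and C1q reference gates of the 5 pooled libraries. Points are pooled libraries, bars are 95% counting intervals and open points are 0 UMIs drawn at the axis floor. Ncr1 and Klrb1c in L-fuc day 7 were higher in NK-type than in CD8 T barcodes (335.1 against 79.9 CPM for Ncr1), while Klrd1 was about level (196.3 against 207.0 CPM).

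In NK-type barcodes the make-up of the 8 members' UMIs varied less than their summed level. Ncr1 made up 38.9%, 36.7%, 36.4%, 33.1% and 43.7% of member UMIs in NK-type barcodes, although the summed level ran from 136.1 CPM (control day 7) to 1415 CPM (day 0). In NK-marker-positive barcodes the Ncr1 share was 40.8%, 40.02%, 36.2%, 40.6% and 46.4%. In CD8 T barcodes Ncr1 made up 2.67%, 16.1%, 13.6%, 0% and 0%, and Klrd1 made up 42.3%, 33.3%, 35.4%, 56.9% and 48.9%. Over 11 other choices of barcodes and gates, the Ncr1 share at L-fuc day 7 stayed between 35.9% and 36.9% in the NK gate and between 10.0% and 13.9% in the CD8 T gate. The NK-type and CD8 T gates thus differed in which member led, in every library. Other T barcodes were also led by Klrd1, except at L-fuc day 21, where Ncr1 had 21 UMIs and Klrd1 17.

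Klre1 was the member whose share differed most between libraries in NK-type barcodes. It made up 3.79% (1.65 to 7.33) of member UMIs at day 0, 7.85% (6.61 to 9.25) at control day 7, 11.3% (10.6 to 12.1) at L-fuc day 7, 15.7% (9.89 to 23.3) at control day 21 and 10.3% (6.59 to 15.2) at L-fuc day 21. Klre1 was singled out for this spread, the intervals cover counting error only, and how many other genes differ as much was not tested. In NK-marker-positive barcodes of day 7, taken by the stricter gate, Klre1 made up 8.37% (6.62 to 10.4) in control against 12.1% (11.2 to 13.03) in L-fuc. Klrc1 moved the other way in those barcodes, with 11.01% (9.01 to 13.3) in the control library against 7.20% (6.50 to 7.96). Shares of other members differed too. Klrd1 had 150 of 872 member UMIs in control and 1066 of 4956 in L-fuc NK-marker-positive barcodes of day 7. In NK-type barcodes Klrk1 had 275 of 1668 and 873 of 6740. Klrg1 took less of the member UMIs in other T barcodes at day 7 than at day 0, with 16.3%, 9.55% and 4.07% at day 0, control day 7 and L-fuc day 7.

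**Figure D2:**
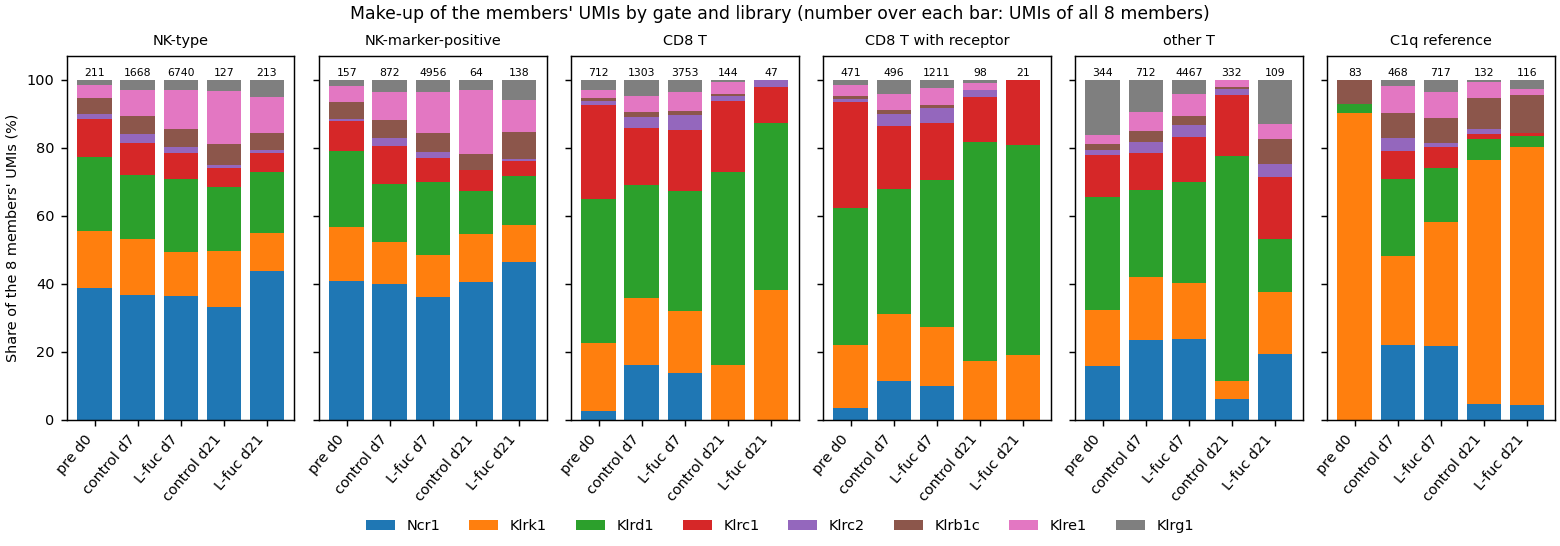
Share of the 8 members' UMIs (percent) taken by each member, stacked, in 6 gates and the 5 pooled libraries, with the number of member UMIs printed over each bar. The Ncr1 part is 33.1% to 43.7% in the NK-type gate and at most 16.1% in CD8 T barcodes, where Klrd1 is 33.3% to 56.9%.

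NK-type barcodes were compared with CD8 T barcodes within each library, which needs no comparison between pools. The summed member level was 3.58 times (3.06 to 4.18) that of CD8 T barcodes at day 0, 0.462 times (0.430 to 0.497) at control day 7 and 1.57 times (1.51 to 1.64) at L-fuc day 7. At day 21 it was 0.849 times (0.664 to 1.09) in control and 6.63 times (4.81 to 9.29) in L-fuc. In the control library of day 7, 5 of 8 members were at least 2-fold lower in the NK-type gate, as were 14.6% of the genes compared, and at L-fuc day 7 3 of 8 were at least 2-fold higher, as were 14.2% of genes.

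Between NK-marker-positive and receptor-positive CD8 T barcodes the NK gate was higher in all libraries, with ratios of 4.92 (4.08 to 5.91), 2.31 (2.06 to 2.58), 3.71 (3.49 to 3.96), 4.11 (2.95 to 5.69) and 15.5 (9.75 to 25.8). The day 21 values rest on 5 against 16 barcodes in control and 6 against 7 in L-fuc. At L-fuc day 7, Klrb1c differed 21.6-fold (12.2 to 42.2), Ncr1 13.7-fold (11.3 to 16.6), Klre1 9.37-fold (7.15 to 12.5) and Klrg1 5.17-fold (3.50 to 7.90). The CD94 group differed least, with ratios of 1.85 (1.66 to 2.06) for Klrd1, 1.58 (1.33 to 1.89) for Klrc1 and 1.41 (0.986 to 2.04) for Klrc2. At control day 7 the ratio for Klrd1 was 1.08 (0.866 to 1.35) and that for Ncr1 8.04 (6.06 to 10.8). By the 2-fold rule 5 of 8 members were higher at L-fuc day 7 and 3 of 8 at control day 7, against 5.82% and 5.35% of all genes.

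Adaptors that carry the signals of these receptors were split in the same comparison. Tyrobp (DAP12) stood at 2284 CPM in NK-marker-positive and 327 CPM in receptor-positive CD8 T barcodes of L-fuc day 7, and Fcer1g at 1550 and 358 CPM. Macrophages use both, and C1q-positive barcodes of that library held 1943 CPM of Tyrobp and 3170 CPM of Fcer1g. Hcst (DAP10), the partner of NKG2D, was about level, at 507 and 640 CPM, and Lat, an adaptor of the T cell receptor, was lower in the NK gate, at 70.02 and 356 CPM. Of 15 adaptor genes, 6 were at least 2-fold higher and 1 was lower, beside 5.82% and 7.9% of all genes. Their median log2 ratio was 0.42, beside 1.85 for the members and 0.04 for all genes. Other lectin-like genes of the NK complex had a median of 3.08, with 11 of 15 at least 2-fold higher (5.82% of all genes), among them Klra3 (254 and 17.2 CPM) of the Ly49 family.

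CD8 T barcodes held more of the members than other T barcodes at day 0 and at control day 7, by 2.29 times (2.01 to 2.61) and 2.27 times (2.07 to 2.49). At L-fuc day 7 the ratio was 1.14 (1.09 to 1.19), and at day 21 it was 0.542 (0.443 to 0.662) in control, the other way, and 0.786 (0.546 to 1.12) in L-fuc. Klrc1 differed most at day 0, at 5.07-fold (3.63 to 7.23), and at control day 7 it differed 3.54-fold (2.72 to 4.66). Ncr1 went the other way at day 0 (0.390, 0.218 to 0.668) and at L-fuc day 7 (0.655, 0.588 to 0.728). Between receptor-positive CD8 T and receptor-positive other T barcodes, the Ncr1 ratio was 1.67 (0.728 to 3.98) at day 0, on 16 and 11 UMIs. At L-fuc day 7 it was 0.798 (0.630 to 1.01), so neither interval stayed below 1. At least 2-fold higher in CD8 T barcodes were 3 of 8 members at day 0, 4 at control day 7 and 0 at L-fuc day 7, against 2.87%, 3.64% and 2.72% of genes. At least 2-fold lower at day 0 were 2 of 8, Ncr1 and Klrg1, against 6.04% of genes.

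At day 7 all 8 members were higher in the L-fuc library than in the control library in NK-type barcodes. Their summed level was 136.1 CPM in control and 920.2 CPM in L-fuc, a ratio of 6.76 (6.41 to 7.14), and the members ranged from 4.39 for Klrc2 (3.13 to 6.26) to 9.74 for Klre1 (8.08 to 11.8). All 8 passed 2-fold, as did 10.9% of all genes. Tumor markers summed to 304 CPM in control and 190 CPM in L-fuc, barcodes with at least 5 C1q UMIs made up 14.5% and 26.4% of the gate, and the share of barcodes with any member UMI was 24.5% and 61.4%. In C1q-positive barcodes the share with any member UMI was 14.9% and 18.6%. Both the share of barcodes with a member UMI and the level in them enter the ratio of 6.76, and the part of each was not tested.

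In NK-marker-positive barcodes the ratio was 2.58 (2.40 to 2.77), with 858.2 and 2210 CPM, and in the NK-type barcodes with a single Nkg7 UMI it was 1.55 (1.32 to 1.82). Klre1 again had the highest value in the NK-marker-positive gate, at 3.72 (2.91 to 4.81), followed by Klrd1 at 3.22 (2.71 to 3.85). Klrc1 had the lowest, at 1.69 (1.34 to 2.13), next to Klrc2 at 1.75 (1.07 to 2.98). Ncr1 stood between them at 2.33 (2.07 to 2.62). At least 2-fold higher were 6 of 8 members and 5.19% of genes. Any member was found in 61.7% (55.5 to 65.3) of control and 85.3% (82.8 to 87.3) of L-fuc barcodes of this gate at 1000 UMIs. How much of the ratio of 2.58 lies in the share of barcodes with a member UMI and how much in their level was not tested.

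Markers of other cells moved with this comparison. The 4 tumor markers, of which 2 were detected in each library of day 7, summed to 193 CPM in control and 93.7 CPM in L-fuc NK-marker-positive barcodes, and all 4 were at 0 in the other libraries. The 4 hemoglobin and red cell markers summed to 1081 and 5956 CPM at day 7 and to 0 to 68.9 CPM elsewhere, and scaling without hemoglobin, ribosomal protein and mitochondrial genes left every ratio checked within its interval. All 6 macrophage markers were detected and summed to 738 and 306 CPM. In C1q-positive barcodes the members' summed level was 40.7 CPM in control and 58.4 CPM in L-fuc, a ratio of 1.44 (1.28 to 1.62), and in tumor-marker barcodes it was 8.08 and 4.94 CPM. Their part in the ratios of the NK gates was not tested.

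The members were not alone in this direction within NK-marker-positive barcodes. Their median log2 ratio was 1.34, beside -0.21 over all genes. The counts of genes at least 2-fold higher that follow stand beside 5.19% of all genes. Effector genes had a median of 1.67, with 8 of 11 higher, led by Gzmb (212 and 999 CPM) and Gzma (2333 and 9442 CPM), whose products are granzymes. Gzma and Prf1, counted among these 11, and Eomes were also among the genes that set the gate. Other lectin-like genes of the NK complex had a median of 1.52 (10 of 14), adaptors 1.21 (9 of 15), other NK and costimulatory receptors 0.90 (5 of 13) and genes of NK and ILC1 identity 0.78 (5 of 13).

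Identity genes did not all go the same way. S1pr5 and Tbx21, found in mature NK cells, were higher in L-fuc (31.5 and 87.9 CPM, 57.1 and 153 CPM), and Eomes stood at 84.6 and 169 CPM. Itga1, a marker of tissue-resident ILC1, was lower, at 88.6 and 35.2 CPM. Itga1 also stood at 70.3 and 22.2 CPM in C1q-positive barcodes of the same libraries. The genes named here are examples, the other genes of the NK and ILC1 identity list are not given, and a shift between cell types was not tested. Ligand genes had a median of -1.14 (0 of 5 higher, 3 lower), beside 16.7% of all genes lower. Of the ligand genes, Cdh2, a cadherin bound by Klrg1, had the lowest value, at 63.0 and 7.14 CPM.

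In CD8 T barcodes the summed level at day 7 was 294.4 CPM in control and 585.5 CPM in L-fuc, a ratio of 1.99 (1.87 to 2.12). Klrg1, with 60 and 130 UMIs, had the lowest ratio (interval 1.09 to 2.07) and Klrc2 the highest, 2.53 (1.80 to 3.61), and 4 of 8 passed 2-fold, against 3.17% of genes. In receptor-positive CD8 T barcodes the ratio was 1.60 (1.44 to 1.78). Klrd1 there was 1.88 (1.59 to 2.24), Klrc1 1.46 (1.14 to 1.89) and Ncr1 1.37 (0.990 to 1.91), and 0 of 8 passed 2-fold, against 2.37% of genes. Klrg1 was 0.936 (0.518 to 1.72), so that its direction was lost.

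Other T barcodes stood at 129.6 and 512.1 CPM in the same libraries, a ratio of 3.95 (3.65 to 4.28), with 7 of 8 members past 2-fold against 6.16% of genes. With a receptor contig the ratio was 3.00 (2.56 to 3.54), and 6 of 8 passed against 4.38%. There Ncr1 stood at 14.1 and 73.3 CPM, a ratio of 5.18 (3.11 to 9.25), and Klrg1 at 21.2 and 21.9 CPM, a ratio of 1.03 (0.634 to 1.74). Tumor markers were carried by 10.2% (control) and 5.49% (L-fuc) of CD8 T barcodes and by 15.9% and 7.02% of other T barcodes. At least 5 C1q UMIs were carried by 39.9% and 39.8% of CD8 T and by 30.2% and 36.0% of other T barcodes. The part of both in these ratios was not tested.

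**Figure D3:**
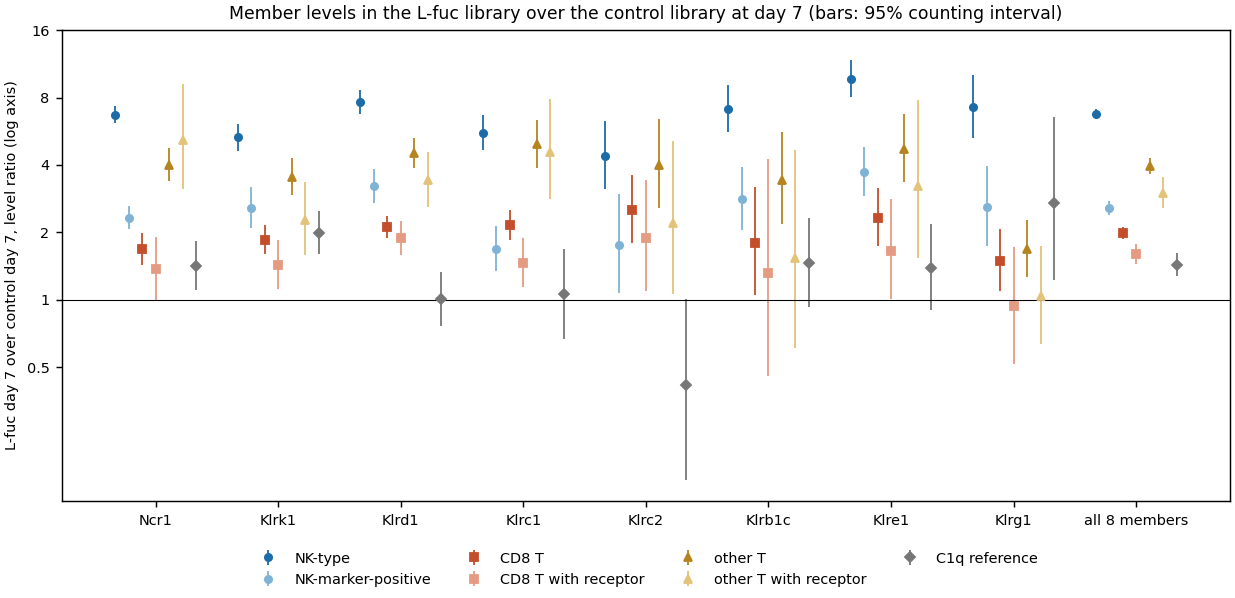
Ratio of the member level in the L-fuc library to that in the control library at day 7 (log axis) for each member and all 8 together, in 7 gates. Points are the ratio of 2 pooled libraries and bars are 95% counting intervals. For all 8 together the ratio is 6.76 in the NK-type gate, 2.58 in the NK-marker-positive gate, 1.60 in receptor-positive CD8 T and 1.44 in C1q-positive barcodes.

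At day 21 the gates were small, with 30 and 43 NK-type, 27 and 15 CD8 T and 40 and 35 other T barcodes in control and L-fuc. The summed level in NK-type barcodes was 494.2 and 846.1 CPM, a ratio of 1.71 (1.37 to 2.15), and 2 of the 7 members with enough UMIs passed 2-fold against 9.87% of genes. In the 5 and 6 NK-marker-positive barcodes the ratio was 0.622 (0.460 to 0.851), so the direction depended on the gate. Macrophage markers in NK-type barcodes summed to 3304 CPM in control and 12092 CPM in L-fuc, mast cell markers to 875 and 0 CPM, neutrophil markers to 510 and 0 CPM and tumor markers to 206 and 63.6 CPM. CD8 T barcodes stood at 581.8 and 127.7 CPM, a ratio of 0.219 (0.154 to 0.307), and 2 of 3 members compared were at least 2-fold lower, as were 15% of genes. The 8 T cell markers there summed to 3882 and 1662 CPM, macrophage markers to 14079 and 8512 CPM and cDC1 markers to 88.9 and 209 CPM. Other T barcodes stood at 1073 and 162.4 CPM, a ratio of 0.151 (0.121 to 0.189), and 5 of 8 members were at least 2-fold lower, as were 12.5% of genes. T cell markers in this gate summed to 4300.0 and 1128 CPM, B cell markers stood at 3.23 and 399 CPM, and a receptor contig was found in 70% and 31.4% of its barcodes. The part of these cell types in the day 21 ratios was not tested. Klrd1 held most of the members' control UMIs in other T barcodes, with 220 UMIs in control, of which 81 came from 1 barcode, and 17 in L-fuc.

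NK-marker-positive barcodes often held several members. Among 495 such barcodes of L-fuc day 7, each thinned to 1000 UMIs, 14.7% (12.7 to 17.2) held no member, 25.3% (22.02 to 28.1) held 1, 29.2% (26.1 to 33.3) held 2 and 31.01% (28.1 to 33.9) held 3 or more. Among 236 control barcodes 38.3% (34.7 to 44.5) held none and 11.2% (8.05 to 15.3) held 3 or more. In 259 receptor-positive CD8 T barcodes of L-fuc day 7, 61.6% (55.98 to 66.4) held none, 25.9% (20.5 to 28.96) held 1 and 3.09% (1.54 to 4.25) held 3 or more.

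Pairs of members in NK-marker-positive barcodes of L-fuc day 7 depended on the draw. An Ncr1 UMI was present in 56.3% to 70.8% of barcodes with a given other member, by the median of the draws. Over the whole gate, 255 barcodes held Ncr1 and 240 did not in 1 draw, so part of that range is near the overall share. Klre1 was found in 27.8% (21.9 to 37.8) of barcodes with Klrc1 and in 27.02% (22.4 to 29.7) of those without, and the difference was above 0 in 12 of 20 draws. For Klrk1 the shares were 26.9% (17.6 to 34.3) and 26.9% (23.7 to 30.7), with a difference above 0 in 11 of 20 draws. For Klrd1, the partner of Klrc1, 1 draw at 1000 UMIs gave 30.8% with Klrc1 and 40.9% without. At 2000 UMIs, which leaves more barcodes out, 1 draw gave 78.5% and 62.8%. The values at 2000 UMIs come from 1 draw only, so from the values given here the depth and the draw cannot be told apart.

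Among receptor-positive CD8 T barcodes of L-fuc day 7, Klrd1 was found more often in barcodes with its partner Klrc1 than in those without, in every draw. Klrd1 was found in 39.05% (24 to 60) of Klrc1 barcodes, of which there were 21 to 38, and in 19.9% (16.2 to 25.4) of the others, a difference above 0 in 20 of 20 draws. At control day 7 the shares were 22.5% (10 to 33.3) and 12.9% (9.65 to 16.5), with a difference above 0 in 18 of 20. Draws thin the same barcodes again and are not replicates. Klrc1 was found in 35.4% (0 to 75) of the 4 to 12 Klrc2 barcodes of L-fuc day 7 and in 9.98% (7.57 to 13.7) of the others, and reads shared between both genes can add to this value. Ncr1 was found in 4.67% (1.61 to 9.43) of Klrd1 barcodes there.

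**Figure D4:**
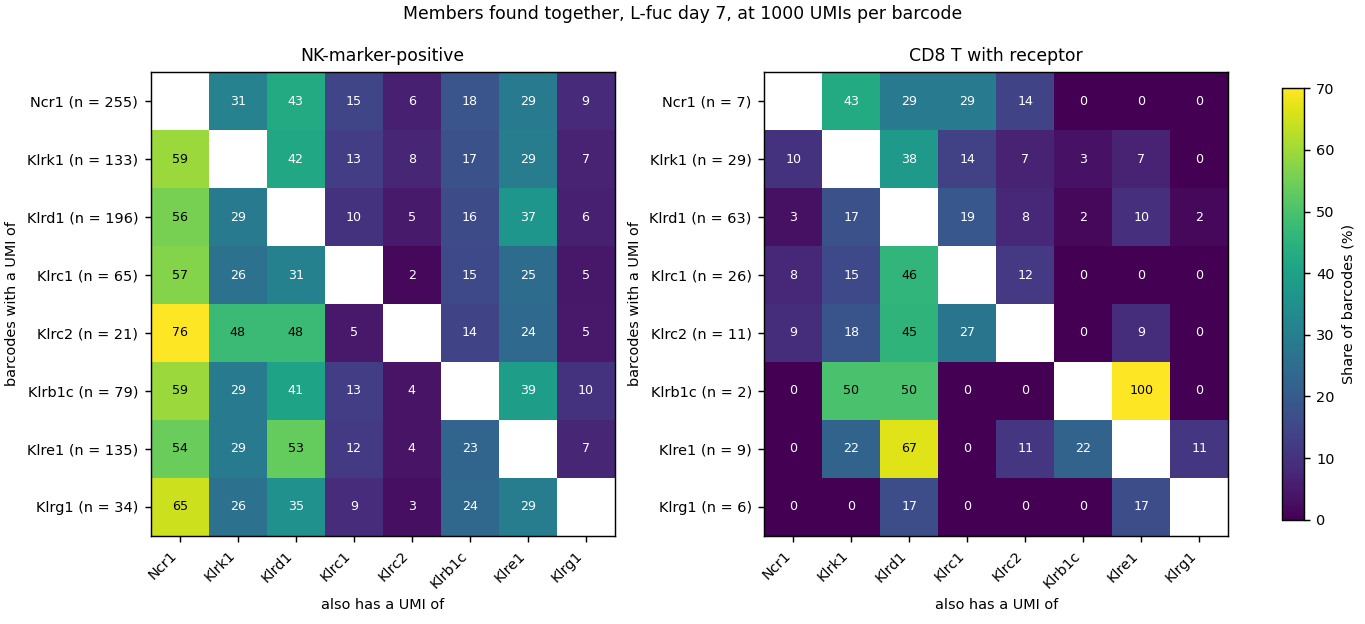
Share of barcodes (percent, color and number) with a UMI of the row's member that also hold a UMI of the column's member, at 1000 UMIs per barcode, in the L-fuc library of day 7. The left panel is NK-marker-positive and the right panel receptor-positive CD8 T barcodes, with the number of barcodes behind each row. The plot shows 1 draw, in which the Ncr1 column is 54.1% to 76.2% on the left and, for Klrd1, 2 of 63 barcodes on the right.

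CD8 T barcodes with a Klrd1 or Klrc1 UMI at 1000 UMIs were compared with the others for genes of killing and exhaustion. Prf1, which encodes perforin, was 2.33 times (1.45 to 3.44) as high in the 63 to 91 such receptor-positive barcodes of L-fuc day 7 and 4.13 times (2.47 to 7.22) as high at control day 7. Pdcd1, which encodes PD-1, was 1.66 times (1.12 to 2.15) and 1.46 times (1.05 to 1.87) as high, and 2.63 times (1.31 to 3.57) at day 0. These ratios stayed above 1 in all 20 draws, which thin the same barcodes of 1 library again and leave out counting error. Gzma and Gzmb did not: at L-fuc day 7 their ratios were 3.20 (0.993 to 8.12) and 1.64 (0.868 to 3.46), and at control day 7 they were 1.55 (0.101 to 5.51) and 3.28 (0.944 to 6.09). Tcf7, a factor of naive and memory T cells, was 0.629 times (0.291 to 0.930) as high at day 0 and 1.01 times (0.428 to 1.70) at L-fuc day 7.

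Clone sizes from the receptor libraries were set beside these barcodes. At day 0, 43.96% (33.3 to 59.1) of barcodes with Klrd1 or Klrc1 and 33.5% (29.4 to 37.2) of those without belonged to clonotypes of at least 2 barcodes. At control day 7 the shares were 64.3% (55 to 73.8) and 63.7% (61.6 to 65.8), and at L-fuc day 7 70.1% (60.3 to 73.1) and 62.3% (61.3 to 66.1). The share was higher with Klrd1 or Klrc1 in 18, 11 and 17 of 20 draws in these libraries. For clonotypes of at least 5 barcodes, 1 draw gave 8.82% with and 13.4% without at day 0. It gave 58.3% and 46.0% at control day 7 and 33.8% and 39.6% at L-fuc day 7. The direction differed between the 2 clone sizes at day 0 and at L-fuc day 7, but not at control day 7. For at least 5 barcodes the intervals with and without overlapped at day 0 (1.86 to 23.7 and 6.89 to 22.7). They also overlapped at L-fuc day 7 (23.4 to 45.4 and 32.4 to 47.1). Since these values come from 1 draw, the clone size and the draw cannot be told apart.

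Klrk1 was the member found most often in C1q-positive barcodes in every library, though at control day 7 Klrd1 came near it. In C1q-positive barcodes it was found in 13.2%, 5.82%, 10.4%, 8.68% and 9.31% of barcodes, while Klrd1 was found in 0.248%, 4.41%, 3.83%, 0.489% and 0.559%. It made up 90.4%, 72.0% and 75.9% of the member UMIs there in the libraries of day 0 and day 21, against 26.3% and 36.5% at day 7. Among C1q-positive barcodes with no UMI of another member, Klrk1 was still found in 13.1%, 4.17%, 8.89%, 7.91% and 8.69%. Hcst, whose product is the adaptor of NKG2D, was found at 33.5 to 48.1 CPM in the same barcodes.

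**Figure D5:**
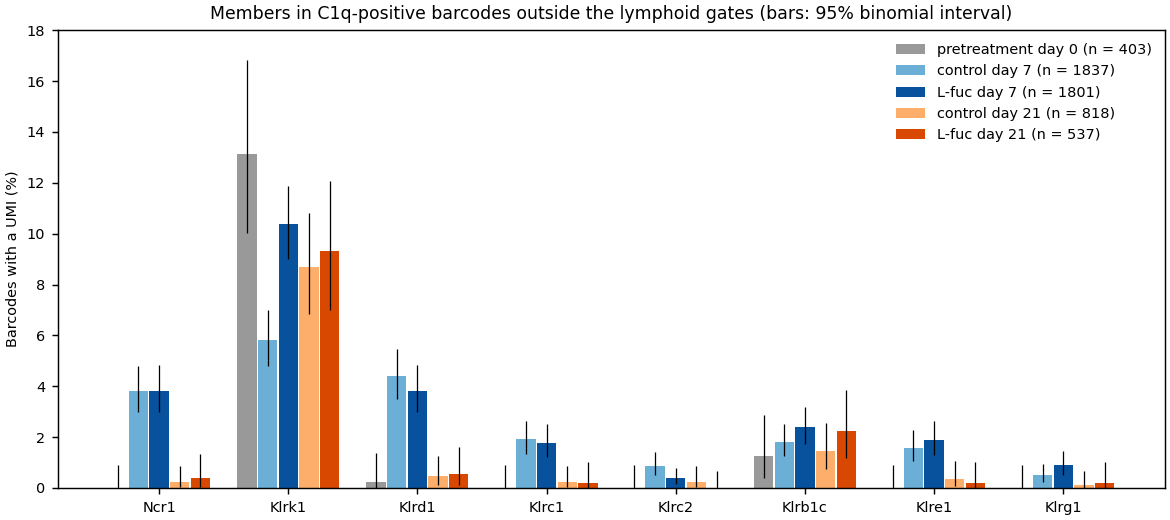
Share of C1q-positive barcodes outside the lymphoid gates with a UMI of each member (percent, as deposited) in the 5 pooled libraries, with 95% binomial intervals. Klrk1 is at 5.82% to 13.2% in every library, and the others reach at most 4.41%.

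The genes most like the members in level were ranked over 19 sums of a gate in a library with at least 20 barcodes, among 12960 genes. The sums of a library share its pool and depth. The 10 highest Pearson correlations of log2 levels, 0.949 to 0.979, were those of Qrfp, Tbx21, Il18rap, Zfpm1, Prf1, Ifitm10, Lpcat4, Adora2a, Klra7 and Rasl12. None of them was used by the gates of the rule.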

How the data were processed

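Leukocytes sorted for CD45 from pooled SW1 tumors were profiled in 5 droplet libraries, each with a T cell receptor library of the same pool. The authors aligned reads to mm10 with Cell Ranger (3.0 in the submitters' processing notes, 7.1.0 in the matrix headers) and deposited raw UMI counts per gene and barcode, together with receptor contigs. Whether intronic reads were counted is not given in the sources used here. The libraries held 14439185 to 119047810 UMIs.

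Members, gates and gene lists were chosen with earlier results of these data known. The NK-marker-positive gate and the receptor-positive T gates, and several alternatives, were added after seeing the data. Named genes are the 8 members, examples of the fixed lists (the highest, the lowest and abundant genes) and the 10 genes with the highest correlation, among genes with at least 100 UMIs.

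Counts were summed over barcodes and scaled to 1000000 UMIs of the gate. Sums have exact Poisson, shares exact binomial (Clopper-Pearson) and ratios exact conditional 95% intervals. Genes with at least 10 UMIs in the 2 sums together were compared, and log2 ratios used a pseudocount of 1 UMI. Shares were also computed after thinning to 1000 UMIs, which leaves shallower barcodes out, in 20 random draws added after a single draw was seen to decide several values. Some tumor marker genes are not reported here and were left out of that list, which then held 4 genes. Doublets were not removed, and Scrublet in scanpy 1.11.5 was an alternative. Its automatic threshold marked 0 barcodes in both libraries of day 7 and was not used. The barcodes with the highest scores were left out instead, at an assumed rate of 0.08% per 1000 barcodes. These were 256 barcodes in control and 65 in L-fuc at day 7. Positions come from the mm10 gene annotation and promoters from RefSeq. Interval code was tested on simulated counts. Computation used scipy 1.17.1, pandas 2.3.3 and numpy 2.4.6 under Python 3.11.15.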

Additional observations from a re-analysis of the deposited data

Results flagged for a closer look

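Several members went opposite ways between days or gates, with both counting intervals away from 1. With 1 pooled library per condition the difference was not tested in any of these cases. For all 8 members, the L-fuc to control ratio in CD8 T barcodes was 1.99 at day 7 and 0.219 at day 21, and in other T barcodes 3.95 and 0.151. At day 21 it was 1.71 in NK-type barcodes, opposite to both T gates, but it was 0.622 in NK-marker-positive barcodes and 0.610 as a mean over NK-type barcodes, the same way as the T gates. Klrc1 had ratios of 2.15 and 0.112 in CD8 T and 4.96 and 0.156 in other T barcodes at the 2 times, and Klrd1 had 2.11 and 0.189 in CD8 T and 4.51 and 0.0356 in other T barcodes. Klre1 stood at 2.33 in CD8 T barcodes at day 7, and at day 21 it had 0 UMIs in L-fuc, which with 3 counts in place of 0 gives a ratio of at most 0.403. Ncr1 had 4.01 in other T barcodes at day 7 and 0.484 at day 21, when it was 2.26 in NK-type but 0.711 (0.444 to 1.17) in NK-marker-positive barcodes. The day 21 values rest on 15 to 43 barcodes a gate, and those of the NK-marker-positive gate on 5 and 6.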

How the results depend on the processing

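No paired analysis was possible because mice were pooled before sequencing and there is 1 library per group, so no animal can be followed from one library to another. At most 13 alternatives could be computed for a result. The alternatives on 200 genes, 20% mitochondrial UMIs, Scrublet, complexity, Nkg7, C1q, Cd3, the mean over barcodes and the scaling were set in advance of them, and the NK-marker-positive gate, the receptor-matched gates, leaving out tumor-marker barcodes, leaving out shared barcodes and the 20 draws of thinning were chosen after seeing the data. The cause of each change below was not tested. Scaling without hemoglobin, ribosomal protein and mitochondrial genes, a maximum of 20% mitochondrial UMIs and leaving out shared barcodes kept every value within its interval.

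For the summed level at day 7 in NK-type barcodes (6.76), Nkg7 of at least 2 gave 3.47, the NK-marker-positive gate 2.58, no tumor-marker barcodes 6.17, the mean over barcodes 4.96, no C1q barcodes 8.21 and Scrublet 7.14. In CD8 T barcodes (1.99) it was 1.85 with receptor-matched gates, which asked for a productive receptor contig in T barcodes and none in NK-type barcodes but, unlike the receptor-positive gates of the report, set no limit on C1q. In other T barcodes (3.95) it was 4.64 without C1q barcodes, 3.24 with a Cd3 sum of at least 3, 3.06 as a mean over barcodes, 3.61 without tumor-marker barcodes and 3.11 with receptor-matched gates. At day 21 NK-type barcodes (1.71) gave 1.31 with Nkg7 of at least 2 and 3.83 without C1q barcodes, was 1.01 without tumor-marker barcodes, and turned to 0.610 as a mean over barcodes and 0.622 in the NK-marker-positive gate. CD8 T barcodes (0.219) gave 0.359 with complexity of at least 0.8 and 0.616 as a mean over barcodes, and other T barcodes (0.151) gave 0.194 with a Cd3 sum of at least 3 and 0.246 as a mean over barcodes.

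The ratio of NK-type to CD8 T barcodes at day 0 (3.58) was 5.35 with Nkg7 of at least 2, 6.16 as a mean over barcodes, 5.01 without tumor-marker barcodes and 6.44 in the NK-marker-positive gate. At control day 7 (0.462) it turned to 1.70 with Nkg7 of at least 2 and 2.92 in the NK-marker-positive gate, and was 0.373 without C1q barcodes, 0.811 as a mean over barcodes, 0.687 without tumor-marker barcodes and 0.425 with receptor-matched gates. At L-fuc day 7 (1.57) the same choices gave 2.96, 3.78, 2.04 (mean over barcodes) and 2.26 (no tumor-marker barcodes). At control day 21 (0.849) the values were 2.22 with Nkg7 of at least 2, 0.316 without C1q barcodes, 1.55 as a mean over barcodes, 1.62 without tumor-marker barcodes and 7.58 in the NK-marker-positive gate, and at L-fuc day 21 (6.63) 13.2, 1.54 as a mean over barcodes, 21.5 in the NK-marker-positive gate and 4.05 with complexity of at least 0.8. The share of kept barcodes in the NK-type gate, L-fuc over control at day 7 (1.15), was 1.01 with 200 genes, 3.04 with Nkg7 of at least 2, 0.995 without C1q barcodes, 1.38 without tumor-marker barcodes and 4.18 in the NK-marker-positive gate.

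Single members also turned. NK-type over CD8 T at control day 7 was below 1 for Klrc1, Klrc2, Klrd1, Klrg1 and Klrk1, and became 1.93, 2.08, 1.51, 2.18 and 1.82 in the NK-marker-positive gate and, for Klrc1, Klrc2, Klrg1 and Klrk1, 1.01, 1.17, 1.21 and 1.25 with Nkg7 of at least 2. At L-fuc day 7 Klrc1 (0.670) became 1.51 and 1.25 and Klrc2 (0.685) 1.44 and 1.23 in the NK-marker-positive gate and with Nkg7 of at least 2. The day 7 ratio of Klrg1 in CD8 T barcodes, above 1 as reported, became 0.969 with receptor-matched gates. The NK-type, CD8 T and other T gates of day 21 held 15 to 43 barcodes each, and the NK-marker-positive gate held 5 and 6. An alternative with 0 UMIs in one sum gave no value.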
